A study of Homo sapiens with 9 samples.

Results

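Genes that build epithelial cell contacts, together with keratins and genes of epithelial identity, were followed in HCT116 cells with an edited HUWE1 gene. The list named 46 genes and was applied by gene symbol to the table of counts. Of these, 44 were measured among 11350 genes in all, and CLDN1 and CLDN2 are not analysed here. The 44 comprised 4 adherens junction genes, 5 genes of the nectin-afadin system, 8 desmosome genes, 12 tight junction genes, 3 polarity genes, 4 keratins and 8 genes for epithelial regulators, EPCAM and surface proteases with their inhibitors.

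Epithelial cells hold on to each other through adherens junctions, in which E-cadherin binds catenins that link it to actin, and through nectins, which bind afadin. Desmosomes join desmogleins and desmocollins through plakoglobin, plakophilins and desmoplakin to keratin filaments, and tight junctions seal the space between cells with claudins, occludin and the scaffold proteins of the ZO family. Transcription and splicing factors such as GRHL2, ELF3 and the ESRP proteins maintain these genes and their epithelial splice forms.

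HCT116 is a human colorectal carcinoma line, and HUWE1 is a ubiquitin ligase of the HECT type, whose catalytic cysteine transfers ubiquitin to substrates. RNA was compared between untreated parental cells (HUWE1-P), cells in which the endogenous gene was rewritten with the same cysteine (HUWE1-WT), and cells in which this cysteine became serine (HUWE1-CS), with 3 libraries of each line. Both edited lines went through guide RNA transfection, drug selection and propagation from single cells, and carry a P2A-blasticidin resistance gene from the repair template, whereas HUWE1-P cells do not. Whether the 3 libraries of an edited line came from 1 clone or several is not given in the sources used here, so that p-values measure the spread between these libraries and a difference of clones cannot be told apart from a difference of genotype.

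The 9 libraries held between 1610984 and 2060349 counts. The members' depth ranged from a mean of 6.44 counts per library for NECTIN4 to 3436 for KRT8, with a median of 137. Values are given as CPM, the count relative to the library's size after TMM scaling. HUWE1 itself was at 543 ± 19.8 CPM in HUWE1-P, 469 ± 25.8 CPM in HUWE1-WT and 336 ± 11.7 CPM in HUWE1-CS cells (SD, n = 3 each), and these counts do not show the exchanged codon. A gene was called where the adjusted p of edgeR's quasi-likelihood test over all genes was at most 0.01. KRT8, KRT18, KRT19 and EPCAM, which mark simple epithelia, were abundant in every library. Of 25 mesenchymal markers 8 were measured, and their summed level was between 327 and 337 CPM in HUWE1-P, 324 and 353 CPM in HUWE1-WT and 389 and 426 CPM in HUWE1-CS cells. Against HUWE1-P cells, 2 of the 8 rose and 3 fell, and against HUWE1-WT cells 1 rose and 3 fell, where 17.0% and 15.5% of all genes were called. S100A4, which is not restricted to mesenchymal cells, made up most of that sum and rose (log2 fold change 0.58 against HUWE1-P), as did ACTA2 (2.01, not called against HUWE1-WT cells at 0.80), whereas FN1 (-2.07), FOXC1 (-1.04) and COL1A1 (-0.96) fell. Their part in the changes of the members was not tested. VIM, CDH2, ZEB1 and markers of blood and endothelial cells are not analysed here.

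In HUWE1-CS cells, CDH1, NECTIN1, NECTIN4, DSC2, CLDN7 and LSR rose against both controls, as did GRHL2, ELF3, ESRP1 and EPCAM. The keratin pair KRT8 and KRT18, PKP3 and the splicing factor ESRP2 fell against both. In each comparison with HUWE1-CS cells, 28 of the 44 members were not called. Against HUWE1-P cells, 16 of the 44 members (36.4%) were called, 11 higher and 5 lower, where 17.0% of all 11350 genes were called (8.46% higher and 8.58% lower). Against HUWE1-WT cells, 16 members were called again, 12 higher and 4 lower, where 15.5% of all genes were called (7.42% higher and 8.08% lower). The members' median log2 fold change was 0.13 against HUWE1-P and 0.14 against HUWE1-WT cells, beside medians of -0.01 and -0.00 over all genes. Both comparisons share the HUWE1-CS libraries, and in bulk RNA fewer cells with a transcript and less of it per cell cannot be told apart. Deeper genes are called more often. Among the 38 members with a mean of at least 50 counts the share was 39.5% against HUWE1-P, beside 22.1% of all genes of that depth. Against HUWE1-WT cells it was 36.8%, beside 19.7%. The members were chosen with earlier results of these data known. An excess over all genes, here and below, is therefore not read as a result about them.

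The 14 members called against both controls had the same direction in each. They comprised 10 that rose (CDH1, NECTIN1, NECTIN4, DSC2, CLDN7, LSR, EPCAM, ESRP1, ELF3 and GRHL2) and 4 that fell (PKP3, KRT8, KRT18 and ESRP2). DSG2 and TJP1 were called only against HUWE1-P, and MARVELD3 and PARD6B only against HUWE1-WT cells. In 17 of the 44 members (38.6%) the range of the HUWE1-CS libraries was clear of all 6 controls, 12 above and 5 below, where 26.3% of all genes were so placed (12.9% above and 13.4% below). Most changes were small, and NECTIN4 alone passed the adjusted p together with a change of at least 1 on the log2 scale.

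Between the 2 control lines, 0 of the 44 members were called by edgeR, and 0 by DESeq2 or limma-voom, where 0.0617% of all genes were called by edgeR (0.00881% higher and 0.0529% lower in HUWE1-WT cells). An unadjusted p under 0.05 (edgeR) was reached by 629 of all 11350 genes and by 3 of the 44 members. These were NECTIN3 with a log2 difference of 0.50 (adjusted p = 0.401, edgeR), LSR with 0.16 and KRT19 with 0.13, each with the higher value in HUWE1-WT cells. The members' median was 0.00.

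**Figure D1:**
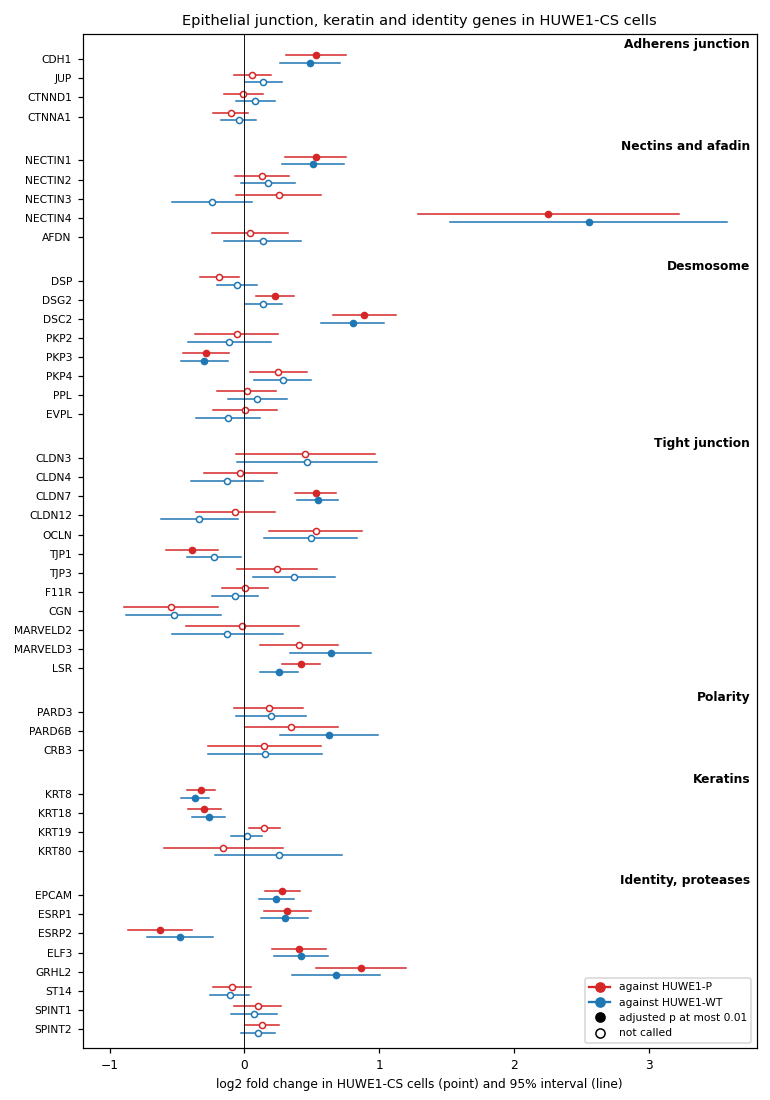
Log2 fold change of each of the 44 members (points) with its 95% interval (lines) in HUWE1-CS cells, red against HUWE1-P and blue against HUWE1-WT cells, grouped by junction type; filled points have an adjusted p of at most 0.01. NECTIN4 stands far to the right with a wide interval, CDH1, NECTIN1 and CLDN7 lie near 0.5, and KRT8, KRT18, PKP3 and ESRP2 lie left of 0 in both comparisons.

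Among the adherens junction genes, the cadherin changed while the catenins did not pass the test. CDH1 (chromosome 16, 68771195 to 68869440, plus strand, GRCh37) encodes E-cadherin, the calcium-dependent adhesion receptor of epithelia. Its level was 59.6, 70.2 and 67.0 CPM in the HUWE1-P libraries, 72.4, 57.8 and 73.8 CPM in HUWE1-WT and 91.4, 90.7 and 103 CPM in HUWE1-CS cells. All 3 HUWE1-CS libraries were above all 6 controls, and the log2 fold change was 0.53 (SE 0.112, adjusted p = 0.000113, edgeR) against HUWE1-P cells. Set against HUWE1-WT cells it was 0.48 (adjusted p = 0.000469, edgeR), a call lost when HUWE1-WT replicate 2, the lowest control, was left out. JUP encodes plakoglobin, which serves adherens junctions and desmosomes, and its log2 difference from HUWE1-P cells was 0.06 with a 95% interval from -0.08 to 0.19. From HUWE1-WT cells it differed by 0.14 (0.005 to 0.28), which was not called (adjusted p = 0.127, edgeR). The p120 and alpha catenin genes CTNND1 and CTNNA1 differed by -0.01 and -0.10, with intervals from -0.15 to 0.14 and from -0.23 to 0.03. The catenins are the more abundant transcripts here, and the summed level of the 4 genes differed by 1.36% from HUWE1-P cells. For CTNND1, 78.6% of the transcript lies in exons of a further annotated gene on the same strand. That gene is not listed by name among the measured genes, and how reads there were assigned is not known. CTNNB1, the beta-catenin gene, is not a member. It differed by 0.18 (95% interval from 0.05 to 0.30) from HUWE1-P and by 0.14 (0.02 to 0.27) from HUWE1-WT cells. Neither difference was called (adjusted p = 0.0255 and 0.0852, edgeR).

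Of the nectins, which are immunoglobulin-like receptors that pair across the cell border, NECTIN1 and NECTIN4 rose and NECTIN2 and NECTIN3 did not pass the test. NECTIN4 (chromosome 1, 161040788 to 161059348, minus strand, GRCh37), a nectin known as the target of an antibody used against urothelial cancer, had 3, 3 and 3 counts in HUWE1-P, 3, 2 and 2 counts in HUWE1-WT and 17, 13 and 12 counts in HUWE1-CS libraries. The groups did not overlap, although all values are low. From the summed counts, 42 against 9, the ratio to HUWE1-P cells was 4.94 (exact 95% counting interval from 2.37 to 11.5), and from 42 against 7 the ratio to HUWE1-WT cells was 6.13 (2.73 to 16.2), and these intervals cover counting error only. The adjusted p over all genes was 0.000153 and 5.7e-05 (edgeR's quasi-likelihood test).

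NECTIN1 (chromosome 11, 119494120 to 119599910, minus strand, GRCh37) was measured far more deeply. It stood at 61.4, 60.6 and 60.2 CPM in HUWE1-P, 67.8, 56.2 and 61.1 CPM in HUWE1-WT and 87.2, 93.6 and 81.9 CPM in HUWE1-CS cells, a fold of 1.44 and 1.42 over the respective control. The HUWE1-CS libraries were clear of all controls, and the call (adjusted p = 0.000157 and 0.000333, edgeR) held with every library left out in turn. NECTIN2 differed by 0.13 from HUWE1-P cells with an interval from -0.07 to 0.33, and AFDN, which encodes the afadin that anchors all nectins to actin, by 0.04 with an interval from -0.24 to 0.32. NECTIN3 lay between its controls, 0.25 above HUWE1-P and 0.24 below HUWE1-WT cells on the log2 scale, and neither difference was called. Summed over the 5 genes, the level was 242 ± 11.5, 251 ± 5.73 and 293 ± 3.95 CPM in the parental, HUWE1-WT and HUWE1-CS lines (SD, n = 3).

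Desmosome genes moved in both directions. DSC2 (chromosome 18, 28638806 to 28682485, minus strand, GRCh37), a desmocollin and thus an adhesive cadherin of the desmosome, rose from 49.0, 53.3 and 61.7 CPM in HUWE1-P and 60.8, 61.1 and 53.5 CPM in HUWE1-WT to 120, 88.5 and 98.1 CPM in HUWE1-CS cells. The lowest HUWE1-CS library was above the highest control, and the log2 fold change was 0.89 (SE 0.117, adjusted p = 1.26e-09, edgeR) and 0.80 (adjusted p = 2.85e-08, edgeR). Its partner DSG2, a desmoglein, was at 328, 303 and 304 CPM in HUWE1-P, 352, 311 and 327 CPM in HUWE1-WT and 386, 318 and 388 CPM in HUWE1-CS cells. These groups overlapped, the call against HUWE1-P (0.23, adjusted p = 0.00971, edgeR) was lost when any of HUWE1-P replicates 1 to 3, HUWE1-WT replicate 3, HUWE1-CS replicate 1 or HUWE1-CS replicate 3 was left out, and the difference from HUWE1-WT cells (0.14) was not called. Per length of transcript, DSC2 was expressed at 0.0815 ± 0.0124 of DSG2 in HUWE1-P, 0.0821 ± 0.00783 in HUWE1-WT and 0.130 ± 0.0138 in HUWE1-CS cells (SD, n = 3), so desmoglein remained the far more abundant of the pair.

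In the desmosomal plaque, PKP3 fell and the others did not pass the test. PKP3, a plakophilin that links cadherins to desmoplakin, was at 153, 149 and 157 CPM in HUWE1-P, 149, 149 and 165 CPM in HUWE1-WT and 122, 135 and 119 CPM in HUWE1-CS cells. Although the groups did not overlap, its adjusted p (0.00882 and 0.00693, edgeR) lay close to the limit, and both calls were lost without HUWE1-WT replicate 2 or 3 and without HUWE1-CS replicate 1 or 3. The call against HUWE1-P cells was also lost without any of the 3 HUWE1-P libraries. DSP, the desmoplakin gene, differed by -0.18 (adjusted p = 0.0495, edgeR) from HUWE1-P and by -0.05 from HUWE1-WT cells. PKP2, PKP4, PPL and EVPL, which encode plaque proteins as well, had log2 differences between -0.06 and 0.25 from HUWE1-P cells. A sum over the 8 desmosome genes was 4.85% above HUWE1-P and 4.75% above HUWE1-WT cells, differences of about 1 SD of the libraries (45.0 CPM on a mean of 1094 in HUWE1-P and 65.3 on 1095 in HUWE1-WT cells).

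**Figure D2:**
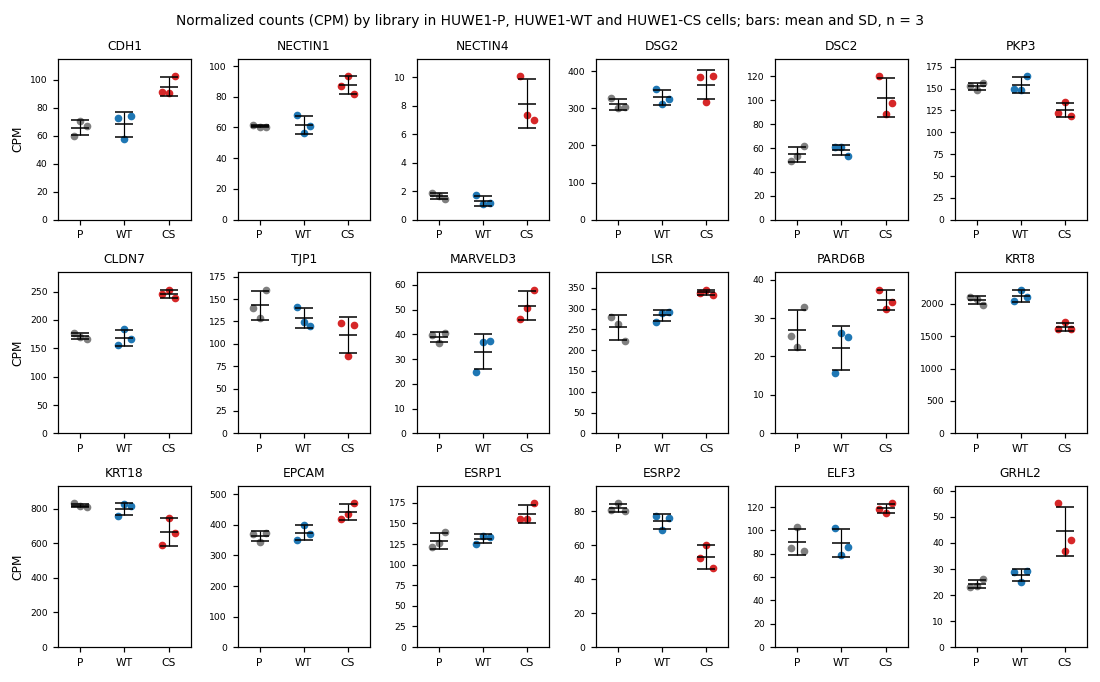
CPM of the 18 members called in either comparison in each of the 3 libraries of HUWE1-P (grey), HUWE1-WT (blue) and HUWE1-CS cells (red), on linear axes from 0, with the mean and SD (n = 3) in black. The red points stand clear of the others for NECTIN4, NECTIN1, DSC2 and CLDN7, lie below them for KRT8 and ESRP2, and overlap them for DSG2 and TJP1.

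Among tight junction genes, CLDN7 and LSR, which encode membrane proteins, rose against both controls, and the scaffold gene TJP1 was called lower against HUWE1-P cells only. CLDN7 (chromosome 17, 7163222 to 7167302, minus strand, GRCh37), a claudin of the intestinal epithelium, was at 177, 169 and 167 CPM in HUWE1-P, 156, 184 and 166 CPM in HUWE1-WT and 246, 254 and 239 CPM in HUWE1-CS cells. With a gap between the groups larger than the spread within any of them, its log2 fold change was 0.53 (SE 0.0764, adjusted p = 2.36e-08, edgeR) and 0.54 (adjusted p = 1.4e-08, edgeR). Its exons share 269 bases (17.4% of the transcript) with a further annotated gene on the same strand, not listed by name among the measured genes. They share 38 bases with ELP5 on the opposite strand, which was measured. How reads there were assigned is not known. The other measured claudins were not called. CLDN4 differed by -0.03 (95% interval from -0.30 to 0.24) from HUWE1-P cells, CLDN12 by -0.07 (from -0.36 to 0.23), and the sparsely expressed CLDN3 by 0.45 with an interval from -0.06 to 0.97 that still includes a change as large as that of CLDN7. Set against HUWE1-WT cells, CLDN4 differed by -0.13 and CLDN3 by 0.47. CLDN12 differed there by -0.34 (95% interval from -0.62 to -0.05), also without a call (adjusted p = 0.0785, edgeR).

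LSR encodes angulin-1, which brings tricellulin to the corners where 3 cells meet. It was at 279, 263 and 222 CPM in HUWE1-P, 269, 290 and 292 CPM in HUWE1-WT and 338, 345 and 333 CPM in HUWE1-CS cells, above all controls in every library. The rise was 1.34-fold against HUWE1-P (adjusted p = 1.22e-06, edgeR) and 1.19-fold against HUWE1-WT cells (adjusted p = 0.00337, edgeR), and the smaller was lost without HUWE1-WT replicate 1, HUWE1-CS replicate 1 or HUWE1-CS replicate 2. MARVELD2, the tricellulin gene itself, differed by -0.02 with an interval from -0.43 to 0.40.

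MARVELD3, a further protein of the occludin family, was at 39.7, 36.5 and 40.5 CPM in HUWE1-P, 24.9, 37.1 and 37.2 CPM in HUWE1-WT and 46.3, 50.5 and 58.1 CPM in HUWE1-CS cells. It was called only against HUWE1-WT (0.64, adjusted p = 0.000638, edgeR) and lost that call without HUWE1-WT replicate 1, its lowest library, or HUWE1-CS replicate 3, while the difference from HUWE1-P cells was 0.41 (adjusted p = 0.0282, edgeR). OCLN itself, at 32.9, 23.6 and 21.2 CPM in HUWE1-P, 30.1, 26.2 and 22.1 CPM in HUWE1-WT and 41.5, 32.9 and 36.0 CPM in HUWE1-CS cells, had a difference as large as that of CDH1, 0.53, but with a wider error (SE 0.173) and no call (adjusted p = 0.0157, edgeR).

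On the cytoplasmic side of the tight junction, TJP1 was called lower against HUWE1-P cells. TJP1, which encodes the scaffold ZO-1 that ties claudins and occludin to actin, was at 140, 129 and 160 CPM in HUWE1-P, 141, 125 and 120 CPM in HUWE1-WT and 123, 86.8 and 121 CPM in HUWE1-CS cells. Its groups overlapped, and the decrease against HUWE1-P cells (-0.39, adjusted p = 0.00132, edgeR) was lost without HUWE1-P replicate 3 or HUWE1-CS replicate 2 and was not called against HUWE1-WT cells (-0.23, adjusted p = 0.0886, edgeR). CGN, the gene of cingulin, was at 32.3, 35.9 and 35.7 CPM in HUWE1-P, 36.5, 36.0 and 30.2 CPM in HUWE1-WT and 31.5, 19.8 and 20.3 CPM in HUWE1-CS cells, a difference of -0.54 that missed the limit (adjusted p = 0.0146, edgeR). TJP3 and the adhesion receptor gene F11R differed by 0.24 and 0.00 from HUWE1-P cells and were not called. Summed over the 12 genes, the level was 978 ± 31.6 CPM in HUWE1-P, 1003 ± 23.0 CPM in HUWE1-WT and 1125 ± 22.5 CPM in HUWE1-CS cells (SD, n = 3).

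Of the polarity genes, whose products set the border between the apical and the lateral membrane, PARD6B was called against HUWE1-WT cells. Its levels were 25.4, 22.5 and 32.8 CPM in HUWE1-P, 15.6, 26.2 and 25.0 CPM in HUWE1-WT and 37.4, 32.3 and 34.3 CPM in HUWE1-CS cells, so that 1 HUWE1-P library reached into the HUWE1-CS range. The log2 fold change was 0.63 (adjusted p = 0.00619, edgeR) against HUWE1-WT, a call lost without HUWE1-WT replicate 1, HUWE1-CS replicate 1 or HUWE1-CS replicate 3, and 0.35 (adjusted p = 0.136, edgeR) against HUWE1-P cells. PARD3 and CRB3 differed by 0.18 and 0.15 from HUWE1-P cells and were not called.

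When the junction and polarity genes and EPCAM, 33 genes in all, are divided by where their products sit, a division made after the values were seen and given only as a description, the 18 transmembrane genes included 8 called higher and 0 lower against HUWE1-P cells, with a median log2 fold change of 0.34. The 15 genes of cytoplasmic plaque and scaffold proteins included 0 called higher and 2 lower (PKP3 and TJP1), with a median of 0.00. Over all genes, 8.46% were called higher and 8.58% lower in this comparison, and since the division followed the values, nothing is read from these counts. Against HUWE1-WT cells the counts were 8 higher and 0 lower of 18, and 1 higher (PARD6B) and 1 lower (PKP3) of 15, beside 7.42% higher and 8.08% lower over all genes.

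Promoter sequence was examined for every member with a promoter window at hand, called or not, with CAGGTG as the motif. This is the E-box to which repressors such as SNAI1 and ZEB1 are known to bind in the CDH1 promoter. A role of such repressors was not tested. The windows, from RefSeq on GRCh38.p14, ran from 250 bases before to 50 bases after each annotated start, and both strands were read, so that CACCTG counts as well. Windows were at hand for 24 of the 44 members, and 14 of these (58.3%) had the motif in at least 1 window. Among all 27305 genes with a window, measured here or not, the share was 24.1%. A gene with more windows has more places for a match, and the 24 members had 37 windows. Counted by window, the motif was in 15 of 37 (40.5%) for members and in 20.6% of all 35116 windows. Since this background was not limited to measured genes, nothing is read from the difference. The motif stood in 5 of 6 members called higher against HUWE1-P cells, in 1 of 2 called lower and in 8 of 16 not called, and a match of letters is not evidence of binding. Of the called members, LSR and KRT8 had a window without the motif, and CDH1, NECTIN1 and GRHL2 were among those without a window. The genes printed next were picked from those that rose and had the motif. The 250 bases before the start are printed for 4 called genes with the motif in capitals, 1 each from the nectins, desmosome, tight junction and epithelial regulators, on the strand of the gene: NECTIN4 at chr1:161089559-161089808 (minus), DSC2 at chr18:31102422-31102671 (minus), CLDN7 at chr17:7262479-7262728 (minus) and ELF3 at chr1:202010337-202010586 (plus).
NECTIN4: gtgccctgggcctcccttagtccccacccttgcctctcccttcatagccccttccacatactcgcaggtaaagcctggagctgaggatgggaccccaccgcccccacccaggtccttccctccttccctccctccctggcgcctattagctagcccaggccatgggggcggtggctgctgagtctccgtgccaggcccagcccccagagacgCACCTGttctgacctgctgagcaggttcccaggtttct
DSC2: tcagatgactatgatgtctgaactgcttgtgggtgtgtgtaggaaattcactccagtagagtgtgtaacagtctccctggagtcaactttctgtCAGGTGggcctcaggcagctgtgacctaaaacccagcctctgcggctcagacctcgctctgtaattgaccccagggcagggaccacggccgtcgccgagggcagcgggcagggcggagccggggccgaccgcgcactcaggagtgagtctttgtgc
CLDN7: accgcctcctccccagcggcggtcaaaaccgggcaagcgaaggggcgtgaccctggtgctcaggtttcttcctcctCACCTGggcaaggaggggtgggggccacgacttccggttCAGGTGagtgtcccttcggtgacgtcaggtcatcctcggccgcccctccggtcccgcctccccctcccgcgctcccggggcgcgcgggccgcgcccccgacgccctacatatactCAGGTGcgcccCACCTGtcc
ELF3: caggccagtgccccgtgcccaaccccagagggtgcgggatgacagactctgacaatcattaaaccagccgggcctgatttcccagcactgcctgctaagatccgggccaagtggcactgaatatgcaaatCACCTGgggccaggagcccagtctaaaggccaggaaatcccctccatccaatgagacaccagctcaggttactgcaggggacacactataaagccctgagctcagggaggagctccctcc

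CLDN7 was the densest of these, with 4 motifs starting 174, 135, 20 and 9 bases before this start and 5 in the whole window. Of all windows, 0.0940% had 5 or more. Since CLDN7 was picked from genes that rose and had the motif, nothing is read from this share. A further CLDN7 window and a further DSC2 window held none. CRB3, whose level was not called, also had 5 in its window.

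KRT8 and KRT18 fell, and KRT19 and KRT80 were not called. KRT8, a type II keratin that pairs with the type I keratins KRT18 and KRT19 to form the filaments of simple epithelia, was at 2104, 2074 and 1986 CPM in HUWE1-P, 2038, 2217 and 2111 CPM in HUWE1-WT and 1603, 1712 and 1615 CPM in HUWE1-CS cells. All HUWE1-CS libraries were below all controls, and the log2 fold change was -0.32 (SE 0.0528, adjusted p = 6.04e-07, edgeR) and -0.37 (adjusted p = 1.78e-08, edgeR). KRT18 was at 829, 814 and 807 CPM in HUWE1-P, 757, 825 and 812 CPM in HUWE1-WT and 590, 746 and 658 CPM in HUWE1-CS cells.

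KRT18 too was below the controls throughout, with log2 fold changes of -0.30 (adjusted p = 8.04e-05, edgeR) and -0.26 (adjusted p = 0.000552, edgeR), but both calls were lost without HUWE1-CS replicate 1, the lowest library. KRT19, at 840, 913 and 858 CPM in HUWE1-P, 897, 1010 and 952 CPM in HUWE1-WT and 939, 1031 and 923 CPM in HUWE1-CS cells, overlapped its controls and was not called (0.15 and 0.02). Per transcript length, KRT19 made up 52.0% ± 1.26 of the KRT18 and KRT19 transcripts in HUWE1-P, 54.8% ± 0.565 in HUWE1-WT and 59.7% ± 1.87 in HUWE1-CS cells (SD, n = 3), and each HUWE1-CS library had a higher share than each control library. On the same scale, KRT8 stood to the sum of both type I keratins as 0.957 ± 0.0293, 0.951 ± 0.0145 and 0.793 ± 0.0338 (SD, n = 3).

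The genes of KRT8 and KRT18 are neighbours on chromosome 12, and 375 bases (26.5%) of the KRT18 transcript overlap exons of KRT8 on the opposite strand. Neither the labels nor the methods state that counting used strand, so reads there cannot be assigned to one of them with certainty. Both also have many annotated pseudogene copies, 51 named for KRT8 and 68 for KRT18, to which near-identical reads could map, and their values carry that uncertainty. KRT80, the fourth keratin, was far lower, at 19.6 ± 4.89 CPM in HUWE1-P cells (SD, n = 3), and differed by -0.16 and 0.25 without a call.

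**Figure D3:**
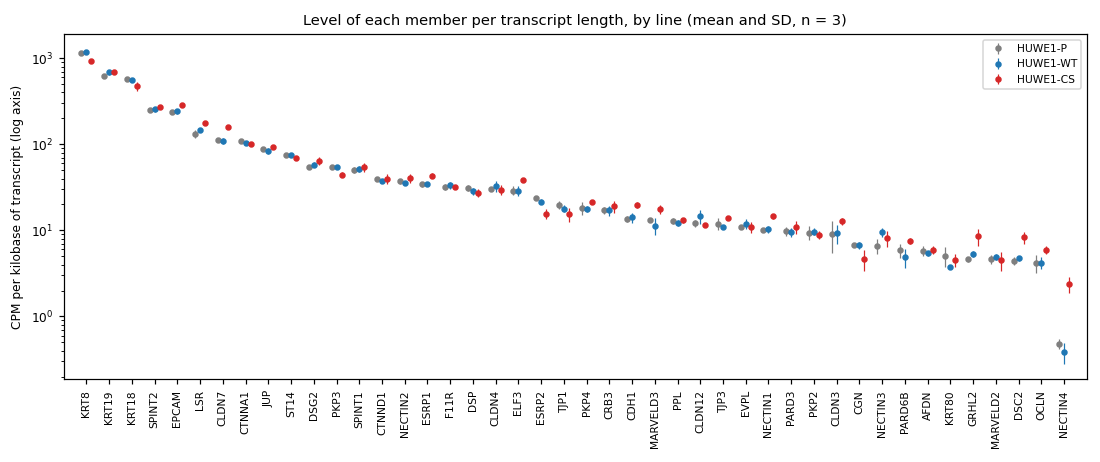
Level of each member as CPM per kilobase of transcript (log axis; mean and SD, n = 3) in HUWE1-P (grey), HUWE1-WT (blue) and HUWE1-CS cells (red), ordered by the level in HUWE1-P cells. KRT8, KRT19 and KRT18 lead the order, at 1152, 626 and 578 in HUWE1-P cells, and NECTIN4 closes it at 0.481.

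Per kilobase of transcript, and so comparable between genes, the keratins led in HUWE1-P cells, followed by SPINT2 at 250 ± 1.91, EPCAM at 235 ± 10.1 and LSR at 132 ± 15.1 CPM per kilobase (SD, n = 3). SPINT2 and EPCAM differed by little more than their spread. In HUWE1-CS cells EPCAM was at 285 ± 16.9 and CLDN7 at 160 ± 4.64 CPM per kilobase, while CDH1 remained a transcript of middling level at 19.7 ± 1.41. CDH1, NECTIN1 and DSC2 thus rose from 13.6, 10.2 and 4.43 CPM per kilobase, well below the levels of LSR or CLDN7.

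Among the epithelial regulators, ESRP1 rose and ESRP2 fell. They encode paralogous splicing factors that promote epithelial exons. ESRP1 was at 121, 126 and 140 CPM in HUWE1-P, 125, 135 and 134 CPM in HUWE1-WT and 155, 155 and 174 CPM in HUWE1-CS cells, and ESRP2 was at 80.7, 84.7 and 80.5 CPM, 77.1, 69.3 and 76.2 CPM and 52.8, 60.1 and 46.4 CPM in the same order. No HUWE1-CS library overlapped a control for either gene.

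ESRP1 rose by 0.32 (SE 0.0865, adjusted p = 0.00286, edgeR) and ESRP2 fell by 0.62 (SE 0.120, adjusted p = 1.93e-05, edgeR) on the log2 scale against HUWE1-P, and the values against HUWE1-WT cells were 0.30 and -0.48. Per length, the ratio of ESRP1 to ESRP2 was 1.43 ± 0.127 in HUWE1-P, 1.62 ± 0.151 in HUWE1-WT and 2.81 ± 0.543 in HUWE1-CS cells (SD, n = 3). ESRP1 lost both calls without HUWE1-CS replicate 3, that against HUWE1-P without HUWE1-P replicate 1 or 2 and that against HUWE1-WT cells without HUWE1-WT replicate 1 or 3. ESRP2 kept its call against HUWE1-P cells in every omission and lost that against HUWE1-WT cells without HUWE1-WT replicate 1, HUWE1-WT replicate 3 or HUWE1-CS replicate 3. ESRP2 shares 227 exon bases with NFATC3 on the opposite strand.

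GRHL2, a grainyhead-like transcription factor that activates CDH1 and claudin genes in epithelia, was at 23.0, 23.6 and 26.0 CPM in HUWE1-P, 29.0, 25.1 and 29.1 CPM in HUWE1-WT and 55.2, 36.9 and 41.2 CPM in HUWE1-CS cells. The HUWE1-CS libraries were widely spread but all above the controls, with a fold of 1.82 (adjusted p = 2.01e-05, edgeR) and 1.60 (adjusted p = 0.000773, edgeR), the latter lost without HUWE1-CS replicate 1. ELF3, an ETS factor of epithelial differentiation, was at 85.0, 103 and 82.4 CPM in HUWE1-P, 102, 79.1 and 86.1 CPM in HUWE1-WT and 119, 115 and 123 CPM in HUWE1-CS cells. Its rises of 0.40 (adjusted p = 0.00122, edgeR) and 0.42 (adjusted p = 0.000913, edgeR) were lost without HUWE1-P replicate 1 or replicate 3 and without HUWE1-WT replicate 2, respectively.

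EPCAM, an adhesion molecule of the surface of most carcinoma cells, was at 369, 345 and 374 CPM in HUWE1-P, 352, 401 and 371 CPM in HUWE1-WT and 420, 434 and 470 CPM in HUWE1-CS cells. The increase was 1.22-fold (adjusted p = 0.000497, edgeR) and 1.18-fold (adjusted p = 0.00426, edgeR), and the second was lost without HUWE1-WT replicate 1, HUWE1-WT replicate 3 or HUWE1-CS replicate 3. The gene of the surface protease matriptase, ST14, and its inhibitor genes SPINT1 and SPINT2 were not called. ST14 was at 243, 245 and 249 CPM in HUWE1-P, 248, 251 and 248 CPM in HUWE1-WT and 227, 235 and 231 CPM in HUWE1-CS cells, so that its HUWE1-CS libraries lay below all controls by a small amount (-0.09, 95% interval from -0.23 to 0.05). SPINT2 lay above all controls by 0.13 (adjusted p = 0.132, edgeR).

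Fold changes in these libraries varied with transcript length over all genes. In 5 classes of equal size, from the shortest to the longest, the median log2 fold change of HUWE1-CS against HUWE1-P cells went from 0.13 over 0.04, -0.01 and -0.06 to -0.12. The long transcripts of DSC2 (12331 bases) and NECTIN1 (5956 bases) rose, and the short ones of KRT8 (1784 bases) and KRT18 (1413 bases) fell, against this trend. With the trend removed, 15 members were called against HUWE1-P and 17 against HUWE1-WT cells. The share of all genes called with the trend removed is not given here. Nothing about the members as a set is thus read from these counts, or from those of transmembrane and cytoplasmic genes below. TJP1, of 7190 bases, was then at -0.28 (adjusted p = 0.0182, edgeR) and EPCAM, of 1547 bases, at 0.19 (adjusted p = 0.0111, edgeR) against HUWE1-P cells, and both calls were lost, as was that of EPCAM against HUWE1-WT cells (0.17). OCLN (0.62, adjusted p = 0.00348, edgeR) became called against HUWE1-P and also against HUWE1-WT cells, and DSG2 became called against HUWE1-WT cells as well. The 18 transmembrane genes then had a median of 0.33 and 8 higher calls, with OCLN in place of EPCAM, and the cytoplasmic ones, which are longer (median length 5101 against 3496 bases), a median of 0.09 with 0 higher and 1 lower.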

How the data were processed

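RNA was sequenced from 3 libraries of each line after selection of polyadenylated RNA (NEBNext Ultra II kit). The submitters' processing notes name bcl2fastq 2.20, STAR 2.5.4 with hg19 and edgeR 3.26.8. The authors deposited unnormalized counts per gene and library. How reads were assigned to genes, with which annotation and whether by strand, is not given in the sources used here. Deposited tables of the authors' own comparisons (fold changes, F, p-values and false discovery rates) were not used.

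Counts were tested with edgeR 4.0.16 in R 4.3.3 (TMM, glmQLFit with legacy = TRUE, glmQLFTest) in 1 fit over the 9 libraries, with no term but the line. No gene was removed, and p-values were adjusted by Benjamini-Hochberg over all 11350 genes. limma 3.58.1 and DESeq2 1.42.0 served for alternatives, and the procedure was tested on simulated data. Intervals are 95%. Positions and lengths are those of GENCODE transcripts on GRCh37, for 11049 genes. A floor of 3 counts per library corresponds to between 1.45 and 1.86 CPM. Every member could be named; called members are given by library. Of the related lists, 1 gene is left out of the counts and not reported here. Members and lists were chosen with earlier results of these data known. Replicates of a line differed by more than sampling noise, so each counted as 1 sample. Same-numbered libraries of different lines deviated together only weakly, with correlations of at most 0.09.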

Additional observations from a re-analysis of the deposited data

How the results depend on the processing

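Of 32 calls of a member in 1 comparison, 14 were kept in all 19 changes of test, scaling, filter, block, length correction or library, and none changed sign in any setting run. NECTIN1, NECTIN4, DSC2, CLDN7 and KRT8 kept both calls there, apart from the minimum of 10 counts in every library, which removed NECTIN4 from the test. DESeq2 was stricter, with 11 members called against HUWE1-P and 7 against HUWE1-WT cells in place of 16 and 16, and with 1088 and 998 of all genes in place of 1934 and 1759. It did not call DSG2, ELF3, ESRP1, PKP3 and TJP1 against HUWE1-P, nor ELF3, EPCAM, ESRP1, ESRP2, GRHL2, LSR, MARVELD3, PARD6B and PKP3 against HUWE1-WT cells, and the cause was not tested. Between HUWE1-WT and HUWE1-P cells it called 0 of all genes in place of 7. A further limit of 1 on the absolute log2 change left 1 member, NECTIN4, in either comparison with HUWE1-CS cells, and 275 and 273 of all genes. With each library left out in turn, between 13 and 16 members were called against HUWE1-P and between 10 and 16 against HUWE1-WT cells, the lowest without HUWE1-WT replicate 1 or HUWE1-CS replicate 3, where fewer libraries entered the test. The median log2 fold change then lay between 0.102 and 0.140 against HUWE1-P and between 0.0946 and 0.152 against HUWE1-WT cells, the lowest without HUWE1-WT replicate 2. The shares of all genes called in these fits, and in the fit with the replicate block, are not given here. The counts of members called in them are therefore not read as a result about the members. Same-numbered libraries of different lines correlated between -0.03 and 0.09 in their deviations, and differently numbered ones between -0.11 and 0.04. The highest values were thus among same-numbered libraries, but all were weak, and the numbers were not taken as pairs. With the replicate block 16, 16 and 0 members were called, which changed no member's call. Genes of few counts, such as NECTIN4, CLDN3 and KRT80, had wide intervals at this depth.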

Other observations

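Further genes of the same systems, from lists of related genes, are given as counts, beside 17.0% of all genes called against HUWE1-P and 15.5% against HUWE1-WT cells. Of 10 other measured regulators and surface genes of epithelia, 5 rose and 1 fell against HUWE1-P cells. AP1M2, a subunit of the adaptor that sorts proteins to the basolateral membrane, went from 81.4 CPM in HUWE1-P and 88.4 CPM in HUWE1-WT to 210 CPM in HUWE1-CS cells, a larger log2 fold change (1.37) than that of any member except NECTIN4. EHF (0.83), MAL2 (0.52), RAB25 (0.61) and OVOL1 (1.03) were the others that rose, and KLF5 fell (-0.78). Against HUWE1-WT cells, AP1M2, EHF, MAL2 and RAB25 rose and KLF5 and GRHL1 fell, while OVOL1 was not called.

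Both other measured desmosome genes rose against each control, DSC3 by 0.97 and PERP by 0.35 against HUWE1-P cells. Against HUWE1-P cells, among 8 further adherens junction and nectin-like genes, CDH3, the P-cadherin gene, rose (0.44), and the actin-binding VCL (-0.68) and LIMA1 (-0.82) and the nectin-like PVR (-0.34) fell. Against HUWE1-WT cells CDH3 rose and VCL and LIMA1 fell as well, VEZT fell (-0.55), and PVR was not called (-0.29). Of 9 further tight junction genes, again against HUWE1-P cells, YBX3 (0.48) and MAGI1 (0.43) rose and MAGI3 fell (-0.99), and these 3 were called in the same direction against HUWE1-WT cells. KRT7 (-1.30) and KRT23 (-1.82) fell among 4 further keratins, all with a negative log2 difference. Both were also called lower against HUWE1-WT cells, but their counts were low. KRT7 had 14, 20 and 40 counts in HUWE1-P, 21, 23 and 23 in HUWE1-WT and 7, 9 and 12 in HUWE1-CS libraries. KRT23 had 24, 27 and 21, then 28, 26 and 28, then 7, 4 and 8 counts in the same order. By edgeR, 0 of 14 further polarity genes were called against HUWE1-P or HUWE1-WT cells. An unadjusted p under 0.05 (edgeR) was reached by 4 and 5 of them, beside 4100 and 3968 of all 11350 genes. Of 17 colon lineage markers 4 were measured and 0 were called by edgeR in either comparison. In each, 2 had an unadjusted p under 0.05 (edgeR), again beside 4100 and 3968 of all genes. CDX2 was at 20.3, 21.0 and 27.8 CPM in parental, HUWE1-WT and HUWE1-CS cells.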
